A study of Mus musculus with 22 samples.

Results

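The proteasome subunit genes described here are the mouse protein-coding genes on autosomes whose symbols begin with Psma, Psmb, Psmc, Psmd, Psme or Psmg followed by a digit. The rule reads only the symbol in the GENCODE vM1 annotation of mm9 and no measured value, and it gives 48 of 21327 genes. RNA polymerase II (PolII) was mapped by chromatin immunoprecipitation and sequencing (ChIP-seq) in G1E-ER4 cells, an erythroid precursor line derived from the GATA1-null line G1E that carries an inducible form of GATA1. In all groups both CTCF alleles carried an auxin-inducible degron fused to mCherry, and the cells expressed the plant protein OsTIR from a retrovirus, so that auxin removes CTCF. Cells were arrested in prometaphase with nocodazole, with auxin (auxin-treated) or without it (control), and released for 60, 120 or 240 min, which gave early-G1, mid-G1 and late-G1. Cells were sorted on DNA content and mCherry, and in prometaphase also on the mitotic mark pMPM2. The 18 PolII libraries comprise 3 control and 3 auxin-treated libraries in mid-G1 and 2 of each in the other stages. All groups came from the same engineered line.

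The 26S proteasome degrades proteins marked with ubiquitin. Its 20S core is a barrel of stacked rings, with outer rings of alpha subunits (Psma genes) that control entry and inner rings of beta subunits (Psmb genes) that hold the proteolytic sites. The 19S cap has a ring of ATPases (Psmc genes) that unfold substrates and non-ATPase subunits (most Psmd genes) that bind and deubiquitinate them. Other members encode alternative caps (Psme genes) and chaperones of assembly (Psmg genes, Psmd5 and Psmd9). The anaphase-promoting complex sends cyclin B and securin to the proteasome at the exit from mitosis, and maturing erythroid cells rely on it for protein clearance. Psmc3ip, which encodes a factor of meiotic recombination, was matched by its symbol and is no subunit, and Psme2b-ps is a pseudogene by its name.

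Each library was deposited as a list of PolII peaks. The gene window is the gene with 500 bp on either side, and a gene counted as detected where any peak overlapped this window. The strongest peak of a gene was ranked by fold enrichment among all genes detected in that library, and this gene rank is 1 for the strongest gene. Ranks are relative to the other genes of the same library, so a change of rank is not a change of PolII amount. Fewer cells with PolII on a gene and less PolII per cell cannot be told apart. The lists held 2414 to 3918 peaks in prometaphase and 50594 to 117125 after it. The mid-G1 control replicate 1 stood apart, with 50594 peaks over 22.7 Mb against 74154 or more peaks in every other post-mitotic list. The depth recovered from the lists lay between 4.51 and 13.3 reads per kb of genome, again with mid-G1 control replicate 1 lowest. The 10 erythroid progenitor genes checked, among them Kit, Tal1 and Klf1, were detected in all 14 post-mitotic libraries. Of these, 8 had a peak at the transcription start site (TSS) in all 14. Of the 15 marker genes of macrophages, T cells, B cells, hepatocytes and neurons, 2 were detected in all 14 libraries and none of the 15 had a peak at its TSS in all of them.

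Nearly all genes encoding the constitutive proteasome carried PolII from early-G1 onwards. After mitosis, 44 to 46 of the 48 genes were detected in each library, against 45.2% to 51.6% of all genes. In all 14 post-mitotic libraries 44 genes were detected, against 43.8% of all genes. Apart from Psme2b-ps, the exceptions were genes known for expression in particular tissues or states. Psma8, the testis form of an alpha subunit, and Psme2b-ps had no peak in any of the 18 lists. Psmb11, the thymus-specific catalytic subunit, had a peak only in early-G1 control replicate 1 and late-G1 control replicate 2. Both lay at the weak end, with gene ranks of 10376 and 10559 and summit pileups of 10 and 16 reads. Neither peak lay within 500 bp of the TSS. Their median summit position was 4580.5 bp downstream of it, beyond the annotated end of this 4247 bp gene. Psmb8, an interferon-inducible catalytic subunit, was detected in 13 libraries and not in late-G1 auxin-treated replicate 2. Its gene rank there lay between 9045 and 10564, at summit pileups of 10 to 24 reads. A gene without a peak may still hold PolII below the threshold of the peak caller.

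In prometaphase, peaks were found on few members. They were detected on 9 and 10 of the 48 genes in the control libraries (18.8% and 20.8%), against 10.8% and 9.35% of all genes. In the auxin-treated libraries they were detected on 6 and 5 (12.5% and 10.4%), against 9.17% and 6.76% of all genes. At least 1 of the 4 libraries had a peak on 16 of the 48 members, against 15.6% of all genes. Psmb4, a structural beta subunit, was the only member with a peak in all 4 libraries, where 4.36% of all genes had one. Its gene rank was 230 and 172 in the control and 189 and 151 in the auxin-treated libraries. Its fold enrichment was 16.2 and 17.9 in the control and 18.1 and 17.8 in the auxin-treated libraries. These ranks are taken among the 1441 to 2304 genes detected in prometaphase and cannot be set beside the ranks after mitosis. The auxin change of Psmb4 in prometaphase was 0.24 ± 0.50 (log2 rank, SE, adjusted p = 0.963). By limma, 0 of the 930 genes tested in prometaphase were called (0%), and 56 had an unadjusted p under 0.05, with Psmb4 not among them. Psma2, Psma5, Psmb1 and Psme3 had a peak in 3 of the 4 libraries. Among these, Psmb1 and Psme3 had none in auxin-treated replicate 2, and Psma2 and Psma5 had none in auxin-treated replicate 1. Without either auxin-treated library, 3 members rather than 1 were detected in all remaining prometaphase libraries. The summit pileup of members was low, with a median of 11 to 13 reads per library.

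**Figure D1:**
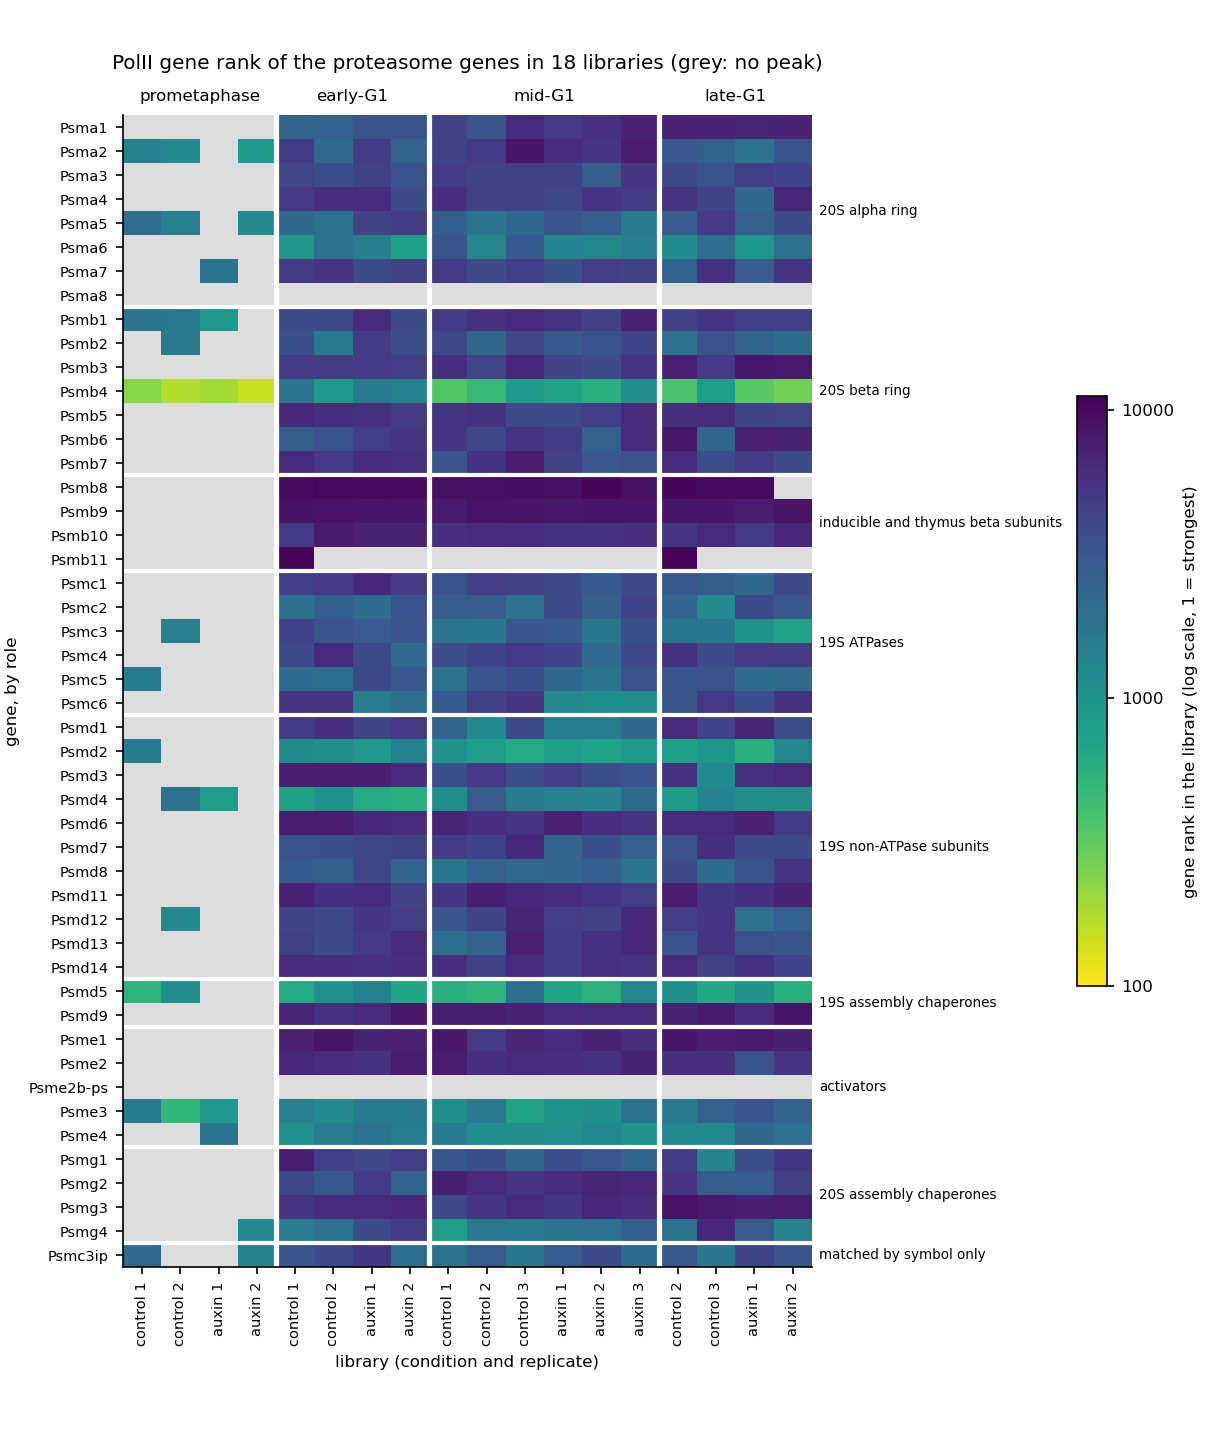
Gene rank of the 48 genes (rows, by role) in the 18 PolII libraries (columns), on a log colour scale where yellow is the strongest and grey means no peak. Prometaphase is mostly grey apart from Psmb4. After mitosis Psmb8 and Psmb9 are the darkest rows, and Psmb11 is grey in most libraries.

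The members differed widely in rank, and the strongest belonged to separate role groups. The mean gene rank over the 14 post-mitotic libraries had a median of 4338 over the 44 genes and of 4694 over all 9351 genes detected in those libraries. Psmb4 had a mean rank of 835 ± 508 (SD, n = 14 libraries), with a range of 272 to 1881. Psmd5, a chaperone of the 19S base, followed with 890 ± 417 and a range of 525 to 1959. Psmd2, the scaffold subunit that receives ubiquitin carriers, had a mean rank of 920 ± 246 and a range of 563 to 1409. The ranges of these 3 genes overlapped, and their order was within their spread. Psmb9 was weakest among the 44, with a mean of 8548 ± 374 and a range of 7755 to 9110. It is an interferon-inducible catalytic subunit, and the TSS of Tap1 lies 211 bp from its own within the window. Psme1, an interferon-inducible alternative cap, had a mean of 7219 ± 967, and Psmd9, a 19S chaperone, 6975 ± 875. Their ranges, 5072 to 8527 and 5751 to 8622, overlapped.

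Within each role the leading gene was as follows. Psma6 led the alpha ring at a mean rank of 1632 ± 736, from 762 to 3271, but its summit lay a median of 14388 bp downstream of the annotated TSS. A peak within 500 bp of that TSS was found in 2 libraries. The alpha ring as a whole had a median mean rank of 4431 over its 7 detected genes. Psmb4 led the beta ring, whose 7 genes had a median of 5044. Psmb10 led the inducible and thymus beta subunits with 6134 ± 847, and its summit lay more than 1 kb from the TSS in 13 libraries. Psmc3 led the 6 ATPases with 2444 ± 1071, and the median over these 6 was 3127. Psmd2 led the 11 non-ATPase subunits, which ranged to 6401 for Psmd6, with a median of 4512. Psme4, the nuclear cap PA200, led the 4 detected activators with 1410 ± 403 and a range of 1008 to 2352. Psmg4 led the 4 chaperones of the core with 2548 ± 1592, from 817 to 6613. Psmc3ip had a mean rank of 3004 ± 1041. The best peak can belong to a neighbour, since 9 members have another gene's TSS in their window. Psmc5 and Psma7, for example, have TSSs 75 and 76 bp from those of Ftsj3 and Ss18l1 on the opposite strand.

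Between early-G1 and late-G1, 4 of the 44 genes changed rank, 3 towards the top of the library and 1 away from it. Psmb4, Psmc3 and Psmc1 rose and Psma1 fell. Over all genes, 4.78% were called higher and 6.05% lower, so the counts of members were near the background. The change compared the mean of control and auxin-treated libraries at each stage on the −log2 rank scale, where a higher value is a better rank. Its median was 0.04 over the 44 genes and 0.00 over all genes, and 23 of the 44 changes were positive. The promoters of Psma1, Psmb4 and Psmc1 are shown from 250 bp upstream of the TSS to 50 bp downstream in mm9, 5′ to 3′ on the strand of the gene. Capitals mark matches on either strand to the letters CCAAT, to an ETS core (CCGGAAG) and to a TATA box (TATAAA). The Psma1 window is chr7:121419583-121419882 on the minus strand, that of Psmb4 chr3:94690834-94691133 on the minus strand and that of Psmc1 chr12:101348146-101348445 on the plus strand.
Psma1: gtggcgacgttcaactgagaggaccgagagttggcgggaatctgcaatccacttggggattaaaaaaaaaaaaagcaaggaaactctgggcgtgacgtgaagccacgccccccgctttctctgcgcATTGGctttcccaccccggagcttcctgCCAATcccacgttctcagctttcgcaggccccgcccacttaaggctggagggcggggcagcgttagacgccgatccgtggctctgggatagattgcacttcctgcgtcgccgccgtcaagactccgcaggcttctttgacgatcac
Psmb4: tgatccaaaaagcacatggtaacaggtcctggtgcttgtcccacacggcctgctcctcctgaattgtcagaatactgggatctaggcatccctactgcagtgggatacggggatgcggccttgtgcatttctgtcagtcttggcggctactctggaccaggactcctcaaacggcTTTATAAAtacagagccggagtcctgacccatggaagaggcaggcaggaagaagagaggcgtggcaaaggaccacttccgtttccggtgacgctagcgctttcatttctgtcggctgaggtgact
Psmc1: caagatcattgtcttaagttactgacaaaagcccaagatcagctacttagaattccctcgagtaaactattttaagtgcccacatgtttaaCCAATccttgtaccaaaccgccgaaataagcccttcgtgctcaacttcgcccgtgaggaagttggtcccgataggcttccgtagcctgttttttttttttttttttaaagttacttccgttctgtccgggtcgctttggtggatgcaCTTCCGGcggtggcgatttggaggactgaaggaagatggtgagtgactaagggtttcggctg
Psma1 held CCAAT matches at −124 and −96, and Psmb4 a pair of overlapping TATAAA matches from −75 to −68. Psmc1 held a CCAAT match at −159 and an ETS match at −12. None of these 3 motifs was present in all 3 promoters.

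Psmb4 had gene ranks of 1881 and 891 in early-G1 control and 1621 and 1434 in early-G1 auxin-treated libraries. In mid-G1 the ranks were 359, 467 and 877 in control and 711, 575 and 1092 in auxin-treated libraries. In late-G1 they were 385 and 796 in control and 337 and 272 in auxin-treated libraries. The 4 early-G1 ranks, from 891 to 1881, did not overlap with the 4 late-G1 ranks, from 272 to 796. The change was 1.78 ± 0.36 (log2 rank, SE, adjusted p = 0.0131). With log2 fold enrichment in place of the rank it was 0.53 (adjusted p = 0.0392). Without early-G1 control replicate 1, the library with the weakest rank, the rank change was 1.51 with an adjusted p of 0.0513.

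Psmc3, the ATPase Rpt5, had ranks of 4337 and 3273 in early-G1 control and 2873 and 3349 in early-G1 auxin-treated libraries. In mid-G1 they were 1816, 1753 and 3196 in control and 2988, 1771 and 3637 in auxin-treated libraries. In late-G1 they were 1776 and 1746 in control and 970 and 734 in auxin-treated libraries. All late-G1 libraries ranked it better than all early-G1 libraries. The change was 1.49 ± 0.26 (adjusted p = 0.00643), and 0.48 with log2 fold enrichment in place of the rank (adjusted p = 0.0254). Psmc1, the ATPase Rpt2, moved from 4650, 5153, 6470 and 5113 in early-G1 to 3061, 2785, 2295 and 3895 in late-G1, with control libraries first. The 6 mid-G1 libraries lay between 2927 and 4642, overlapping late-G1 only. The change was 0.84 ± 0.19 (adjusted p = 0.0201), and 0.46 with log2 fold enrichment (adjusted p = 0.0272). The rank change was not called without early-G1 control replicate 1 or 2, early-G1 auxin-treated replicate 1 or late-G1 auxin-treated replicate 1. In those fits it was 0.65 to 0.88, with adjusted p between 0.0519 and 0.0765.

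Psma1, the alpha subunit alpha 6, went the other way. Its ranks were 2429 and 2638 in early-G1 control and 3268 and 3213 in early-G1 auxin-treated libraries. In late-G1 they were 6968 and 6987 in control and 6882 and 7010 in auxin-treated libraries. The late-G1 libraries were close together and all weaker than any early-G1 library, while the mid-G1 ranks, 3178 to 7181, reached into both ranges. On the −log2 rank scale Psma1 fell by 1.28 (SE 0.19, adjusted p = 0.00322). With log2 fold enrichment in place of the rank its change was −0.83 (adjusted p = 0.00192). Its direction and call were the same when any 1 post-mitotic library was left out.

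**Figure D2:**
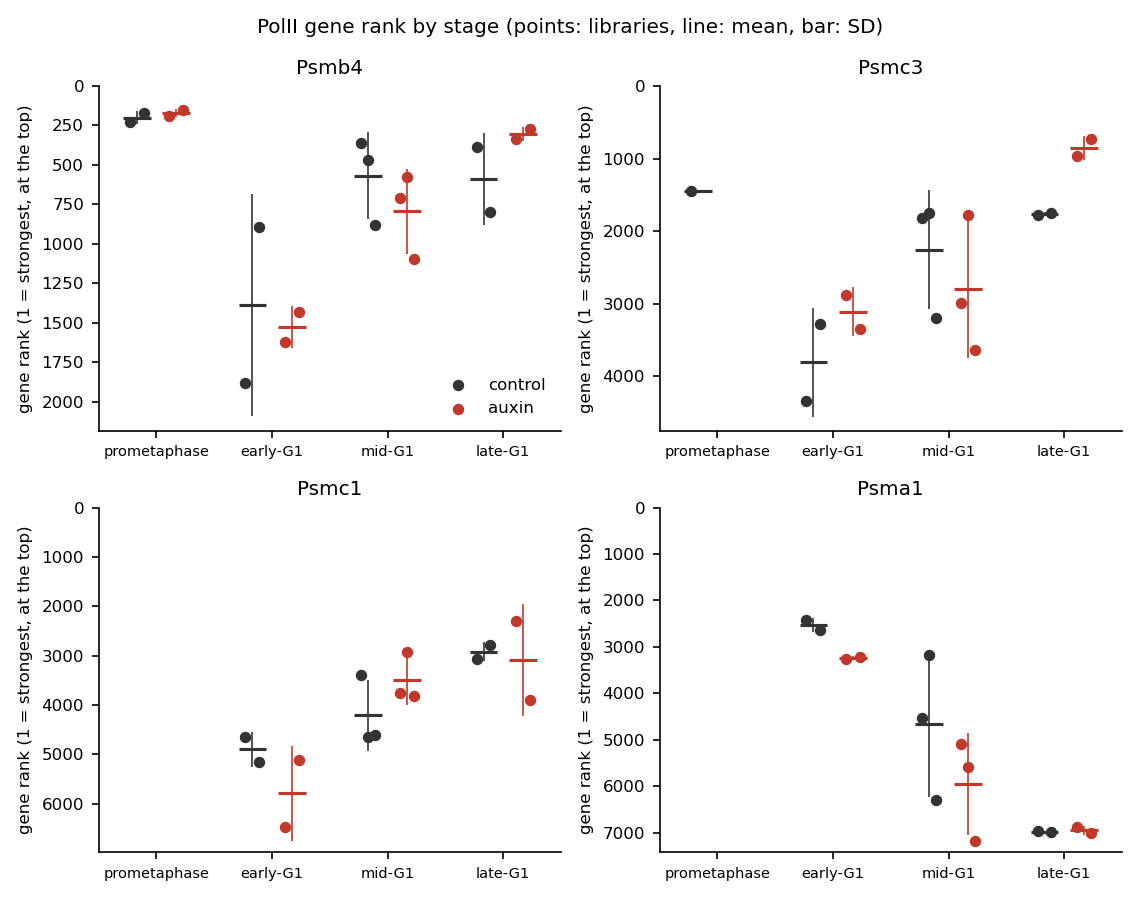
Gene rank of Psmb4, Psmc3, Psmc1 and Psma1 by stage, with the strongest rank at the top; points are libraries, lines group means and bars SD, black for control and red for auxin-treated. The ranks of the first 3 genes improve from early-G1 to late-G1, while those of Psma1 weaken to 6882 to 7010; prometaphase ranks are among fewer genes.

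From early-G1 to mid-G1, 4 of the 44 genes were called, 1 higher and 3 lower, against 4.78% and 6.83% of all genes. They are named after their values were seen. Psma1 fell by 0.84 (SE 0.18, adjusted p = 0.0136), and the call was lost without early-G1 control replicate 1 or auxin-treated replicate 2 (adjusted p = 0.0545 and 0.0517). Psmd4, the ubiquitin receptor Rpn10, had ranks of 585 to 990 in early-G1 and of 1061 to 2886 in mid-G1, and fell by 1.19 (SE 0.27, adjusted p = 0.0194). Its call was lost without early-G1 control replicate 1 or either early-G1 auxin-treated library (adjusted p from 0.0618 to 0.0801), and also with log2 fold enrichment in place of the rank (a fall of 0.32, adjusted p = 0.109). Psmg2, a chaperone of the alpha ring whose TSS lies 263 bp from that of Cep76, had ranks of 2480 to 4921 in early-G1 and of 5422 to 7419 in mid-G1. Its fall of 0.87 (SE 0.25, adjusted p = 0.0493) was lost under 11 of the 14 omissions of a single library, those of early-G1 control replicate 1 or 2, early-G1 auxin-treated replicate 2, any mid-G1 library or either late-G1 auxin-treated library (adjusted p from 0.0510 to 0.184). It was also lost with peaks near the TSS alone (adjusted p = 0.0534) and with genes detected in 10 or more of the 14 libraries (adjusted p = 0.0552). The strongest peak in the window of Psmd1, the largest 19S subunit, rose in rank by 1.33 (SE 0.32, adjusted p = 0.0241), from 4240 to 5896 in early-G1 to 1221 to 3880 in mid-G1. The summit of this peak lay more than 1 kb from the Psmd1 TSS in 9 libraries. Its median position over all 14 post-mitotic libraries was 90214 bp downstream. The window also holds the TSSs of Htr2b and Armc9, and that of Armc9 lies within 500 bp of this median position. Whether the rise belongs to Psmd1 or to Armc9 was not tested. With peaks within 500 bp of the TSS alone, the Psmd1 change was 0.06 with an adjusted p of 0.882. It was also not called without any 1 of the early-G1 libraries or without mid-G1 auxin-treated replicate 1 or 2 (adjusted p from 0.0528 to 0.0894).

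With auxin, the ranks of 43 of the 44 genes did not pass the test, and 1 rose. Averaged over early-G1, mid-G1 and late-G1, 0 members were called lower and 1 higher, against 0.246% and 0.481% of the 9351 genes. The median change was 0.01 over the 44 genes and 0.00 over all genes, with 22 changes positive and 22 negative. Psmc6, the ATPase Rpt4, changed by 1.14 ± 0.17 (adjusted p = 0.0190). The lowest estimates belonged to genes that were not called. Psmc2, the ATPase Rpt1, had −0.59 ± 0.21 (adjusted p = 0.384), and its strongest peak lay a median of 1381 bp into the gene. Psmg4 had −0.41 ± 0.31 and the catalytic subunit Psmb6 had −0.41 ± 0.28, with adjusted p of 0.735 and 0.703. By limma, no member was called lower in the average, and 3 had an unadjusted p under 0.05.

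**Figure D3:**
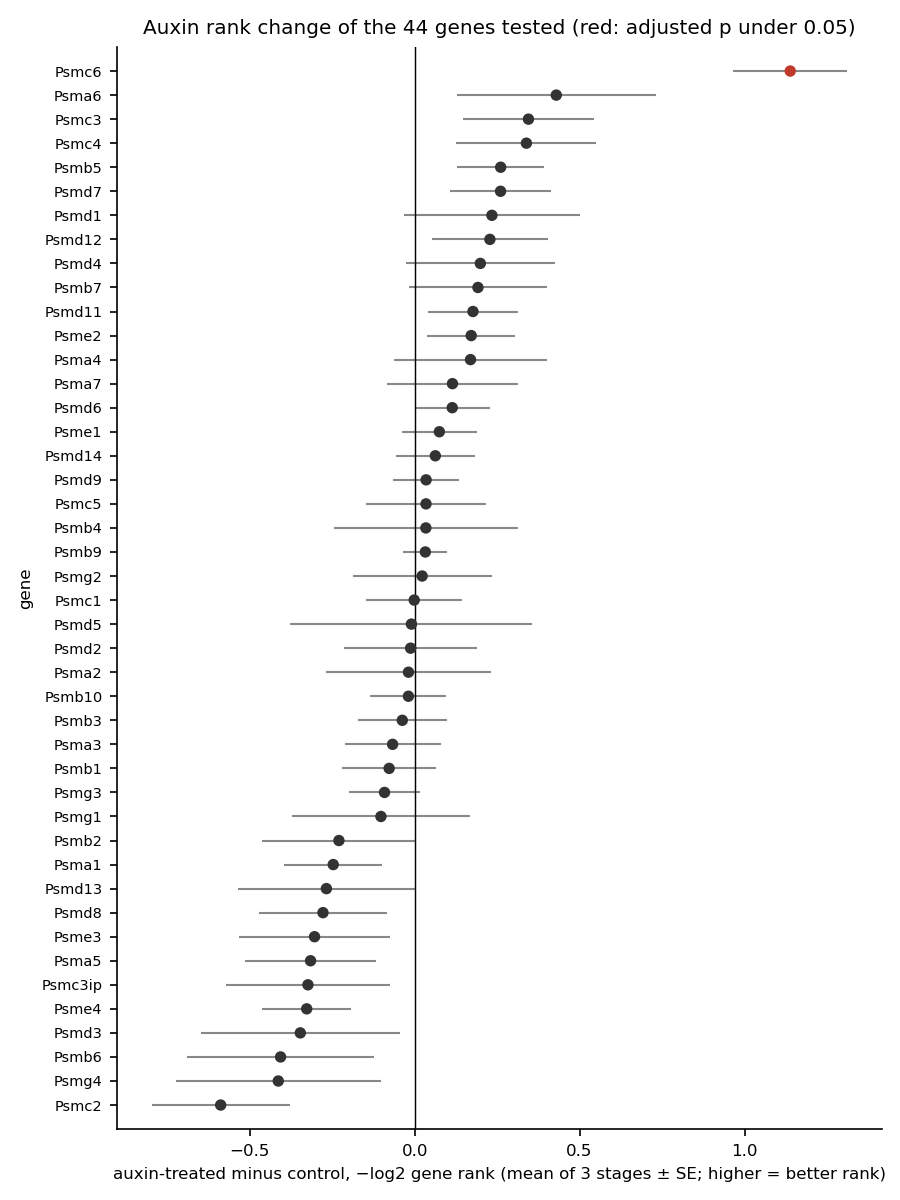
Auxin change of each of the 44 genes tested, as the difference in −log2 gene rank averaged over the 3 post-mitotic stages, with SE. Psmc6 stands at 1.14, and the others lie between −0.59 and 0.43 on both sides of 0.

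Stage by stage, Psmc6 was the only member called, and in mid-G1. In early-G1, 0 members were called by limma (0.0749% of all genes), with 3 at an unadjusted p under 0.05. In mid-G1, 1 was called (0.225% of all genes), and in late-G1, 0 were called (0.278% of all genes), with 4 at an unadjusted p under 0.05. Whether the auxin change differed between stages was tested by an F test over the 3 stages, which called 0 members (0.0107% of all genes, 6 members at an unadjusted p under 0.05). The auxin effect on the change from early-G1 to late-G1 also called 0 members (0.0107% of all genes, 5 members at an unadjusted p under 0.05).

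Psmc6 had gene ranks of 5467 and 5471 in early-G1 control and of 1552 and 1957 in early-G1 auxin-treated libraries. In mid-G1 it had 2954, 4586 and 5372 in control and 1197, 1077 and 1076 in auxin-treated libraries. In late-G1 it had 3265 and 5085 in control and 3565 and 5647 in auxin-treated libraries. The groups did not overlap in early-G1 and mid-G1 and overlapped in late-G1. The fold enrichment of its strongest peak was 17.3, 18.0 and 22.4 in mid-G1 control against 40.4, 46.3 and 39.0 in mid-G1 auxin-treated libraries. The change was 1.65 ± 0.32 in early-G1 (adjusted p = 0.184), 1.90 ± 0.26 in mid-G1 (adjusted p = 0.0202) and −0.14 ± 0.32 in late-G1 (adjusted p = 0.959). The F test of the difference between stages gave an adjusted p of 0.431. In late-G1 control replicate 3 the strongest peak had its summit 21187 bp downstream of the TSS. With peaks near the TSS alone, its rank there was 4827 and the average change was 1.20 (adjusted p = 0.0274). The average call was lost without any 1 of the 4 early-G1 libraries or without late-G1 auxin-treated replicate 1, with changes of 1.03 to 1.19 and adjusted p from 0.0501 to 0.0799. The mid-G1 call was lost without early-G1 control replicate 1 or 2, mid-G1 control replicate 2 or any 1 mid-G1 auxin-treated library (adjusted p from 0.0555 to 0.127). With the replicate number as a block, neither the average nor the mid-G1 call was kept (adjusted p = 0.194 and 0.145). The depth of the lists was 4.51 to 10.2 reads per kb in mid-G1 control and 8.35 to 9.28 in mid-G1 auxin-treated libraries. Without mid-G1 control replicate 1, the library of lowest depth, the mid-G1 change was 2.15 (adjusted p = 0.0133). The part of depth in the result was not tested.

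The summit of the Psmc6 peak also lay in another place in auxin-treated cells, and so did those of Psmc4 and Psmd1 in most libraries. This was examined after the values of Psmc6 had been seen, as the position of the summit of the strongest peak overlapping the TSS window, over 6978 genes with a summit within 1000 bp of the TSS in all 14 libraries. Among 39 members tested, 3 were called with a mean summit further upstream with auxin and 0 further downstream, against 0.874% and 0.373% of all genes. Psmc6, whose values prompted the test, is among the 3. The 300 bp promoters of these genes are shown because the auxin-treated summits fall in them. Capitals mark the stretch from the most upstream to the most downstream auxin-treated summit inside the window. The windows, again 5′ to 3′ on the strand of the gene, are chr14:45949254-45949553 on the plus strand for Psmc6, chr7:28835071-28835370 on the minus strand for Psmc4 and chr1:87960712-87961011 on the plus strand for Psmd1.
Psmc6: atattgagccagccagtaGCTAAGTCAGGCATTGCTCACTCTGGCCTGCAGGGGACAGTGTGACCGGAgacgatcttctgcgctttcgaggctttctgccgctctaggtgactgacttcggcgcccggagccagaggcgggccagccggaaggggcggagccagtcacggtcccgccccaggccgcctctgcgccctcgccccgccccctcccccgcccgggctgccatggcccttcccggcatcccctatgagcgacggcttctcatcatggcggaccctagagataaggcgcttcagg
Psmc4: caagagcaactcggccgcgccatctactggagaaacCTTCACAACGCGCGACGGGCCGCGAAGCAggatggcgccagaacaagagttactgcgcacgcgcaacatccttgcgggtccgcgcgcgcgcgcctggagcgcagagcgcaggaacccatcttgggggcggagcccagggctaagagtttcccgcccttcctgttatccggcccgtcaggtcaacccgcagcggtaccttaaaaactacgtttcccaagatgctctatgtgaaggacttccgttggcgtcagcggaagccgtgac
Psmd1: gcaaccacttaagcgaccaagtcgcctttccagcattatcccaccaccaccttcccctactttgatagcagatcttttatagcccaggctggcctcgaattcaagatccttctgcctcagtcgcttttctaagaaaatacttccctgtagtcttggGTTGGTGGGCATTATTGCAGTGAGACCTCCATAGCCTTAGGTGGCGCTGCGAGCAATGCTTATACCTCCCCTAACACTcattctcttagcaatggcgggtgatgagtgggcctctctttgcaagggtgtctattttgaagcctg
The capitals run from −232 to −183 in Psmc6 (7 summits), from −214 to −186 in Psmc4 (6 summits) and from −94 to −17 in Psmd1 (6 summits). In Psmc6 they open with a match to TGACNNNGC on the minus strand, the core of the antioxidant response element. These letters were in 14.6% of member promoters and 12.7% of all promoters, and in neither the Psmc4 nor the Psmd1 window.

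The summit of Psmc6 lay between −232 and −183 bp from the TSS in all 7 auxin-treated libraries. In control libraries it lay between 59 and 130 bp downstream in 6 of 7, and at −239 bp in mid-G1 control replicate 3. The shift was −263 ± 50.7 bp (SE, adjusted p = 0.0448). It was lost under 12 of the 14 omissions of a single library, with adjusted p up to 0.134, and held without mid-G1 control replicate 1 or 3, at 4.57e-05 without the latter. The summit of Psmc4, the ATPase Rpt3, lay between 73 and 116 bp downstream in all 7 control libraries. In 6 of 7 auxin-treated libraries it lay between −214 and −186 bp, and at 91 bp in early-G1 auxin-treated replicate 1. The shift was −242 ± 36.3 bp (adjusted p = 0.00970). The summit of Psmd1 lay between 296 and 362 bp downstream in all 7 control libraries. It lay between −94 and −17 bp in 6 auxin-treated libraries and at 287 bp in mid-G1 auxin-treated replicate 3, for a shift of −334 ± 49.6 bp (adjusted p = 0.00927). The calls of Psmc4 and Psmd1 were kept when any 1 library was left out. With the replicate number as a block, none of these shifts was called (adjusted p = 0.131 for Psmd1, 0.137 for Psmc4 and 0.237 for Psmc6). In Psmc6, Psmc4 and Psmd1 the summits fell in separate upstream and downstream ranges, and each shift is a difference of means across these ranges. Whether a summit moved or another local maximum became the higher was not tested. The gene rank of Psmc4 and Psmd1 was not called with auxin. Over the 39 members the median shift was 0.44 bp, and over all genes −0.50 bp.

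**Figure D4:**
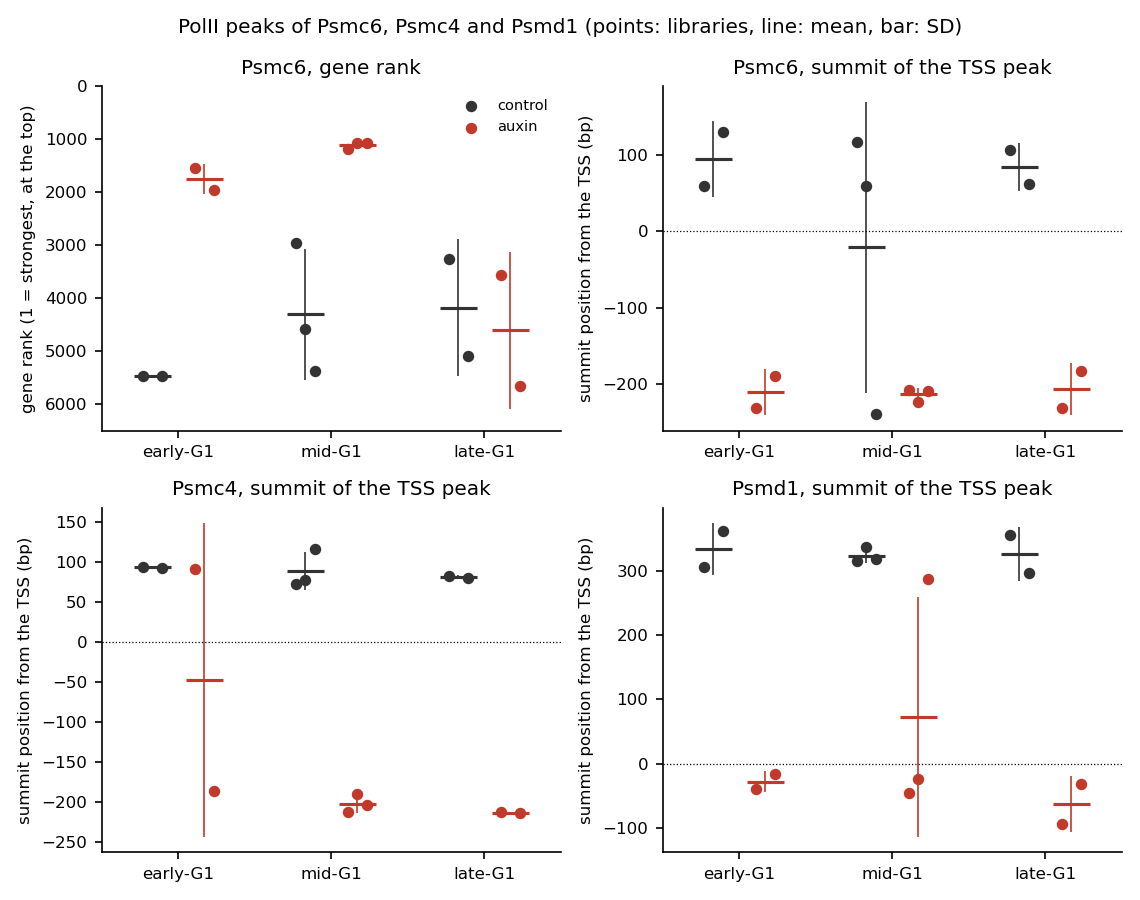
Gene rank of Psmc6 and position of the summit of the TSS peak of Psmc6, Psmc4 and Psmd1 in each post-mitotic library (points; line, mean; bar, SD; black control, red auxin-treated). Auxin-treated summits lie upstream of the control ones, apart from mid-G1 control replicate 3 for Psmc6, early-G1 auxin-treated replicate 1 for Psmc4 and mid-G1 auxin-treated replicate 3 for Psmd1.

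The share of a gene window under peaks, a measure of how far PolII spread along the gene at the sensitivity of each list, changed between early-G1 and late-G1 on 5 members. It fell on 4 of the 44 genes and rose on 1, against 9.90% and 3.05% of all genes. These counts of members were near the background. The median change of the covered share was −4.38 percentage points over the 44 genes and −0.57 over all genes. The lists themselves covered 56.8 to 73.3 Mb in early-G1 and 42.1 to 70.2 Mb in late-G1. With every list cut to its 50594 peaks of best p-value, the number in the shortest list, these medians were −0.95 and −0.0897, and with each value centred on its library −2.03 and 1.77. Leaving out late-G1 control replicate 2 moved the median of the members to −1.98, and leaving out replicate 3 of that group moved it to −7.14. The 5 genes are named after their values were seen. The window of Psmc5, the ATPase Rpt6, was covered over 77.2% and 88.8% in early-G1 control and 75.3% and 81.5% in early-G1 auxin-treated libraries. In late-G1 it was covered over 49.9% and 64.3% in control and 43.0% and 44.0% in auxin-treated libraries. The groups did not overlap, and coverage fell by 30.4 percentage points (SE 7.07, adjusted p = 0.0261). Psmb1, a structural beta subunit, was covered over 29.6% to 53.3% in early-G1 and 10.0% to 27.3% in late-G1 and fell by 21.8 percentage points (adjusted p = 0.0201). Psmd11, the 19S subunit Rpn6, was covered over 26.3% to 40.9% in early-G1 and 3.72% to 20.7% in late-G1 and fell by 19.03 percentage points (adjusted p = 0.0197). The calls of these 3 genes were lost without early-G1 control replicate 2, either early-G1 auxin-treated library, late-G1 control replicate 2 or late-G1 auxin-treated replicate 2, with adjusted p of 0.0603 to 0.101. Those of Psmc5 and Psmb1 were also lost without late-G1 auxin-treated replicate 1 (adjusted p = 0.0784 and 0.0597). With lists of equal length all 3 genes were called with smaller changes, of −24.9 percentage points for Psmc5 (adjusted p = 0.0389), −14.5 for Psmb1 (adjusted p = 0.0360) and −9.59 for Psmd11 (adjusted p = 0.0265).

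Psme4 is long, at 108636 bp, and was covered over 6.73% and 6.70% in early-G1 control and 3.61% and 4.37% in early-G1 auxin-treated libraries. In late-G1 it was covered over 1.05% and 0.83% in control and 1.20% and 1.25% in auxin-treated libraries. Coverage fell by 4.28 percentage points (SE 0.47, adjusted p = 0.00114). With lists of equal length it fell by 1.72 points (adjusted p = 0.0413), and with each value centred on its library the change was −1.93 points and not called (adjusted p = 0.618). Psmg4 went the other way, from 5.48% and 3.96% in early-G1 control and 5.19% and 4.52% in early-G1 auxin-treated libraries to 18.0% and 21.8% in late-G1 control and 13.8% and 11.5% in late-G1 auxin-treated libraries. It rose by 11.5 percentage points (SE 1.81, adjusted p = 0.00551) and was already covered over 10.9% to 19.2% in all 6 mid-G1 libraries. With auxin, averaged over the 3 stages, no covered share was called by limma on any member or any other gene (0%). At an unadjusted p under 0.05 there were 2 members and 643 of all 9351 genes. The median auxin change was −3.30 percentage points over the 44 genes and −0.73 over all genes. With lists of equal length these medians were −0.65 and −0.36, and with centred values −1.50 and 1.07. The median of the members was −0.80 when late-G1 control replicate 3 was left out and −4.95 when replicate 2 of that group was.

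**Figure D5:**
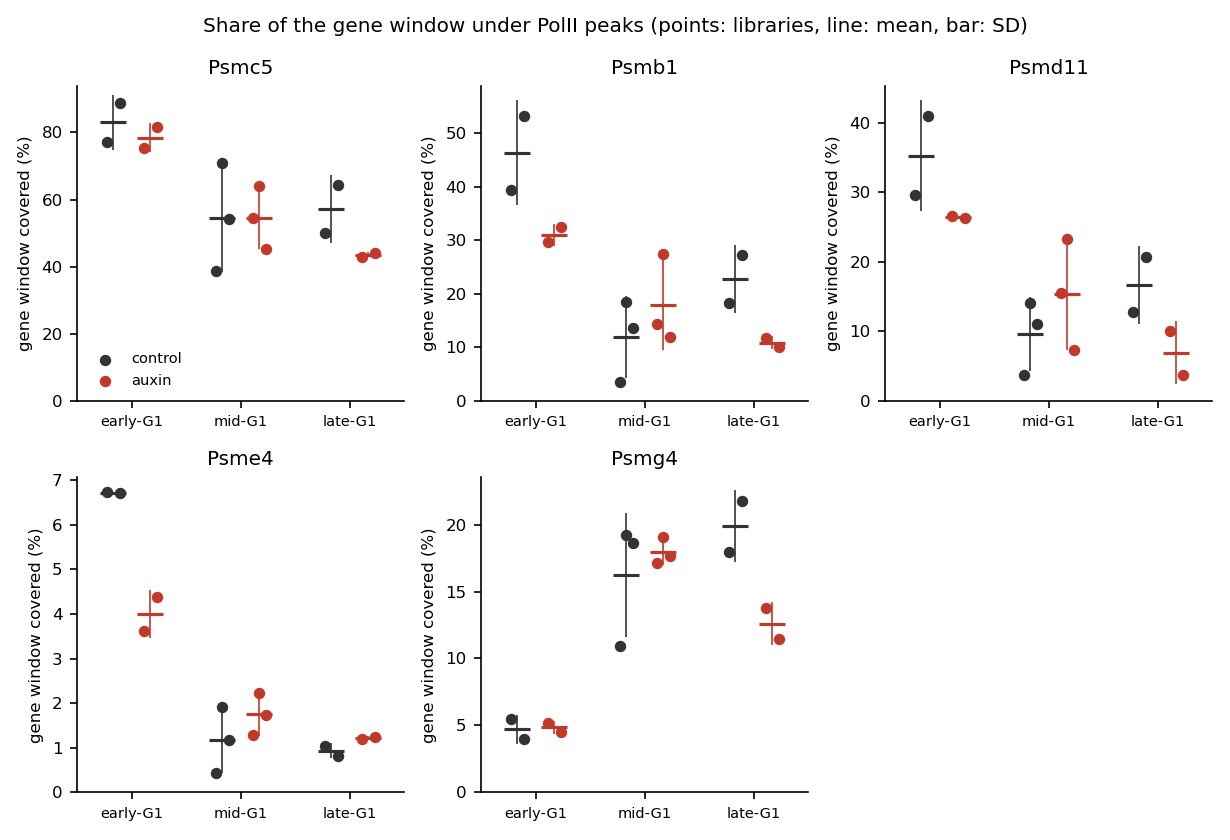
Percent of the gene window under PolII peaks in each post-mitotic library for the 5 genes called between early-G1 and late-G1 (points; line, mean; bar, SD; black control, red auxin-treated). Psmc5, Psmb1, Psmd11 and Psme4 are lower in late-G1 than in early-G1, and Psmg4 is higher.

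Of the 25 other genes of the pathway that were listed, 24 were annotated under their listed symbols, and all 24 were detected in all 14 post-mitotic libraries. In prometaphase, 6 of them had a peak in all 4 libraries, against 4.36% of all genes. None of the 24 was called for rank with auxin at any stage or on average. Between early-G1 and late-G1, 2 fell and 1 rose in rank, against 6.05% and 4.78% of all genes. Shfm1, which encodes the small 19S subunit Dss1, fell from ranks of 2131 to 2842 to ranks of 3975 to 6059, by 0.96 (SE 0.16, adjusted p = 0.00537). Rad23b, a ubiquitin carrier, fell by 0.55 (adjusted p = 0.0330), and Zfand5, a proteasome-binding zinc finger protein, rose by 0.72 (adjusted p = 0.0399). From early-G1 to mid-G1, 3 fell and 2 rose, against 6.83% and 4.78% of all genes. Shfm1, Rad23b and the nuclear import factor Akirin2 fell, and Zfand5 and the ubiquitin fusion gene Rps27a rose. Coverage fell between early-G1 and late-G1 on Nfe2l2, an activator of stress-induced proteasome genes, by 30.4 percentage points (adjusted p = 0.0340), and on the ubiquitin carrier Ubqln1 by 8.61 (adjusted p = 0.0326), against 9.90% of all genes called lower. The summit of Adrm1, the ubiquitin receptor Rpn13, lay between 179 and 211 bp downstream of the TSS in the 7 control libraries. It lay between −140 and −106 bp in the 7 auxin-treated libraries, without overlap, for a shift of −312 ± 8.64 bp (adjusted p = 5.41e-08). It was the only one called of the 20 listed genes in the summit test, where 0.874% of all genes were called upstream.

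The promoters of the 48 genes, over the same 300 bp, had a median GC content of 56.8%, against 55.3% for all 21327. The ETS letters CCGGAAG were present on either strand in 17 of 48 (35.4%), against 10.9% of all promoters. The NRF1 letters GCGCATGC were in 4 (8.33%, against 3.36%) and the E-box CACGTG in 7 (14.6%, against 7.78%). The remaining motifs were nearer to the share of all promoters, with TGACNNNGC in 7 (14.6%, against 12.7%), CCAAT in 19 (39.6%, against 37.6%), TATAAA in 5 (10.4%, against 13.5%) and CNAGGNGGC, part of the CTCF motif, in 5 (10.4%, against 9.52%). These are matches of letters in a window and no test was run on them. The ETS letters were found in Psmc1 and Psmc6 and not in Psmb4, Psma1, Psmc4 or Psmd1.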

How the data were processed

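PolII ChIP-seq peak lists of 18 libraries were used, and 4 input libraries entered only through the authors' peak calls. Per the labels and the study's methods, the authors aligned reads to mm9 with Bowtie2 2.2.9, filtered them with SAMtools 0.1.19 (mapping quality and duplicates) and bedtools 2.27.1 (mitochondrial, unplaced and blacklisted reads), and called peaks with MACS2 2.1.0 in each library over input, without pooling. The deposited columns hold peak and summit positions, the fold enrichment (a linear ratio over local background), the −log10 p-value and q-value, and an integer score, which was not used; the lowest −log10 q was 2.01. The number and width of peaks in the deposited lists depend on depth. Read totals were not used here. The depth was recovered from each list by solving fold and −log10 p for the pileup, which was whole within 0.1 reads for 100% of peaks.

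The genome and GENCODE vM1 annotation are of the same build, mm9. Entries of 1 symbol that overlap were merged (50 entries, 48 genes). Detection needed an overlap of 1 bp with the gene and 500 bp on each side. Gene ranks (−log2) and covered percentages of 9351 genes with a peak in all 14 post-mitotic libraries were fitted with limma 3.58.1 (R 4.3.3) with a mean per stage and condition, and p-values were adjusted by Benjamini-Hochberg over all genes tested. A gene was called at an adjusted p under 0.05. Groups came from the sample titles. For late-G1 auxin-treated replicate 1 the study's records differ. Its title and the read files listed in the reporting summary name it auxin-treated. The peak files listed there hold a late-G1 control replicate 1 instead. The title was followed. The study's methods call the replicates biological, and the labels do not say what was separate between them, so p-values measure the spread between these libraries. The symbol rule uses no measured value, but this gene set, the role groups and the other lists were chosen with earlier results of these data known. Named are members called in the average auxin or the late-G1 minus early-G1 rank comparison (where none, the 3 with the largest change), those with a peak in all prometaphase libraries, the 3 best and 3 worst mean ranks, those missing in a post-mitotic library and the best of each role. The summit test was added after the data were seen. The promoter sequence of 1 further gene is not reported here. Same-numbered libraries were checked for pairing. Their deviations correlated at up to 0.29, in mid-G1 replicate 3, and the main fits used no pairing. The rank and summit fits were also run on simulated data. The planted changes were larger than those reported here, so these runs do not bear on changes of the reported size. Python 3.11.15 and pandas 2.3.3 were used for overlaps.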

Additional observations from a re-analysis of the deposited data

How the results depend on the processing

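The counts of members called or detected kept within 1.5 times their value under most alternatives. With log2 fold enrichment in place of the rank, 7 rather than 4 members were called between early-G1 and late-G1, and Psmc6 was not called in mid-G1 (0 rather than 1 member). With coverage centred on its library, 8 rather than 5 members were called between early-G1 and late-G1. Over all genes the split of this last comparison moved from 926 lower and 285 higher to 1080 and 750. On the log2 fold scale the split of all genes moved from 566 lower and 447 higher to 567 and 738 between early-G1 and late-G1, and from 639 and 447 to 549 and 878 between early-G1 and mid-G1. The average auxin calls over all genes were 23 lower and 45 higher by rank and 54 and 51 by log2 fold, those of late-G1 11 and 15 by rank and 9 and 5 by log2 fold, and coverage with auxin called 0 genes as measured and 43 when centred. By rank in the whole peak list the median of all genes moved by 0.11 in mid-G1 with auxin, and Psmc6 changed by 2.09 there. In fits that left out a library, the members called ranged from 0 to 2 for the average auxin change, 0 to 0 in early-G1, 0 to 1 in mid-G1 and 0 to 2 in late-G1. They ranged from 2 to 6 for late-G1 against early-G1, 0 to 7 for mid-G1 against early-G1, 0 to 1 for the difference between stages and for the auxin effect on the late-G1 minus early-G1 change, and 2 to 6 for coverage. The summit test kept 2 to 3, the count in all 4 prometaphase libraries was 1 to 3, and that in all 14 post-mitotic libraries 44 to 45. Over all genes the same fits called 24 to 182 for the average auxin change, 1 to 15, 8 to 35 and 5 to 387 in early-G1, mid-G1 and late-G1, 518 to 1100 and 576 to 1279 for late-G1 and mid-G1 against early-G1, and 480 to 2092 for late-G1 minus early-G1 coverage. They called 0 to 45 for the difference between stages, 0 to 75 for the auxin effect on the late-G1 minus early-G1 change and 0 to 10 for coverage with auxin. Without late-G1 control replicate 2, Psmd3 was also called for the average auxin change and Psmd3 and Psmg1 in late-G1. Near the TSS alone the average auxin change called 41 genes rather than 68, and in late-G1 the normal score called 6 lower and 3 higher and the whole-list rank 17 and 7. In mid-G1 the whole-list rank called 5 lower and 12 higher, and the log2 fold 16 and 11, against 10 and 11. The cause of these differences was not tested.

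Replicate numbers were not used as pairs in the main fits. Deviations of same-numbered control and auxin-treated libraries correlated at 0.07 in early-G1, 0.02, 0.12 and 0.29 in mid-G1 and 0.00 in late-G1. The highest value, that of mid-G1 replicate 3, leaves a weak pairing possible there. With the replicate number as a block, 0 members rather than 1 were called for the average auxin change and 0 rather than 1 in mid-G1, and over all genes 7 rather than 68. In the summit test the block left 1 member called, Psmg2, rather than 3, since Psmd1 (adjusted p = 0.131), Psmc4 (0.137) and Psmc6 (0.237) were not called, and over all genes 176 rather than 87. Over all genes it called 790 rather than 1211 for late-G1 minus early-G1 coverage, where Psmd11 was not called (adjusted p = 0.0516). In prometaphase, members had summit pileups of 8 to 39 reads at depths of 4.94 to 5.96 reads per kb, which is above the 4.51 of mid-G1 control replicate 1. Depth limits the detection of weaker peaks in all of them.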

Other observations

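Peaks reached the ends of the proteasome genes in most post-mitotic libraries. Of the 47 members longer than 1 kb, 25 to 40 had a peak within 500 bp of the annotated end in each post-mitotic library, with 25 in mid-G1 control replicate 1, the library of lowest depth. Over all genes, 19.1% to 36.5% had such a peak. In prometaphase 0 to 2 members had one, against 1.24% to 2.00% of all genes. At the TSS, 43 to 45 of the 48 members had a peak after mitosis, against 37.1% to 42.3% of all genes.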
